A study of Homo sapiens with 30 samples.

Results

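The HOX genes code for homeodomain transcription factors that pattern the body from head to tail. In humans they lie in 4 gene clusters, HOXA, HOXB, HOXC and HOXD. Within a cluster the genes stand in the order in which they are used along the body. Genes at the 3′ end act early and towards the head, and genes at the 5′ end act late and towards the tail. In undifferentiated stem cells the clusters are known to be held silent by Polycomb marks, and retinoic acid, an inducer of hindbrain and foregut patterning, is known to open them from the 3′ end.

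Chromatin accessibility of these 4 loci was followed by ATAC-seq, which reads out open DNA by where a transposase can cut it, while HUES8 cells were turned into pancreatic cells in culture. HUES8 is a widely used line of human embryonic stem cells. The 10 groups of 3 samples were wild-type control and HNF6-Knockout cells, each at the stages ESC (undifferentiated), DE (definitive endoderm), GT (primitive gut tube), PE (pancreatic endoderm) and PP (pancreatic progenitors). HNF6, also called ONECUT1, is a cut-homeodomain transcription factor of developing liver and pancreas, and the series asks what it does along this course. Whether the knockout cells are 1 clone, and whether the 3 samples of a group are separate differentiations, is not stated in the labels, so p-values and spreads may reflect technical differences alone.

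The members are the deposited regions that share at least 1 bp with 1 of 4 hg19 windows: HOXA at chr7:27130000-27290000, HOXB at chr17:46600000-46810000, HOXC at chr12:54330000-54450000 and HOXD at chr2:176950000-177055000. They number 55 of the 89929 regions that the authors listed as different between genotypes, and 23 of the 22974 wild-type regions, each 500 bp wide, that the authors sorted into 9 clusters. HOXA held 23 of the differential regions, HOXB 15, HOXC 9 and HOXD 8. Per 100 kb of window this came to 14.4 in HOXA, 7.14 in HOXB, 7.50 in HOXC and 7.62 in HOXD. Each differential region carries 3 whole-number values for knockout and 3 for control, a log2 ratio of control over knockout and a -log10 p, which never fell below 5, all from the authors' deposited tables. The values are a measure of accessibility whose scaling is not stated, and the depth of the libraries is unknown. Values of different stages come from separate tables and are set side by side without a test.

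Facts of the whole series bear on these values. On chromosome 15, 6 control-list regions at 4 stages, between 53072851 and 53082400, had knockout means of at most 1.88% of control. They were picked for their low knockout values (2% of the control mean or less, where the control mean reached 50). No annotation of hg19 was used, so neither this interval nor any HOX region was assigned to a gene, and the stage labels were not checked against markers. Over all listed regions outside chromosomes Y and M, the sums of the 3 values of a group differed by at most 1.17 times between the highest and the lowest. Between genotypes they differed more at PP, where the middle sum was 6850303 in knockout and 4806354 in control cells. The middle sums were 6856524 and 6429062 at ESC, 5128979 and 4368677 at DE, 2515771 and 2120495 at GT, and 5144789 and 5127159 at PE. These sums cover only regions listed as different and do not measure depth.

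The order of the 38 member genes was taken from RefSeq (GRCh38.p14). HOXA2, a gene of the hindbrain and second pharyngeal arch, stands at the low-coordinate side of the HOXA members, followed by HOXA3, HOXA4, HOXA5, HOXA6, HOXA7, HOXA9, HOXA10, HOXA11 and HOXA13, a limb and hindgut gene. HOXB runs the same way, from HOXB1, a hindbrain gene, to HOXB9 and then HOXB13, a gene of the hindgut and prostate. HOXC and HOXD run the other way, from HOXC13 and HOXD13 at the low-coordinate side. HOXD1 is the last of its cluster, and HOXC4, HOXC5 and HOXC6 are the last of HOXC, in that order by the start of their RefSeq gene models. Positions below are therefore also given as distance from the edge of the window on the side of the 3′ end, low coordinates for HOXA and HOXB and high coordinates for HOXC and HOXD.

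HOX promoters were searched for the core letters that HNF6 is known to bind, because HNF6 is the factor removed in the knockout. RefSeq promoters, 250 bases before to 50 after a gene's start, were available for 20 of the 38 genes (27 promoters, 26 distinct sequences). The core ATTGAT was found on either strand in 4 of these promoters, of 3 genes, and in 6.26% of all 35116 promoters. The 4 upstream stretches of 250 bases are printed on the strand of the gene, with the core in capitals, where it reads ATCAAT because it lies on the opposite strand. They are shown as the HOX promoters holding this core. They are HOXD11, a limb gene, at chr2:176107030-176107279 (plus strand), HOXA2 at chr7:27102684-27102933 (minus strand), and the 2 promoters of HOXA10, a gene of the uterus and blood, at chr7:27179862-27180111 and chr7:27174321-27174570 (minus strand), all on GRCh38.p14, which is not the build of the regions.
HOXD11: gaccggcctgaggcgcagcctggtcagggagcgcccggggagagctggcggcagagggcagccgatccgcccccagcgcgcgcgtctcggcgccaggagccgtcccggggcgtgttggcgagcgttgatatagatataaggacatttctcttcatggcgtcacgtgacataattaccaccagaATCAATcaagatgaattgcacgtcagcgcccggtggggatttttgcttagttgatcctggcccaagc
HOXA2: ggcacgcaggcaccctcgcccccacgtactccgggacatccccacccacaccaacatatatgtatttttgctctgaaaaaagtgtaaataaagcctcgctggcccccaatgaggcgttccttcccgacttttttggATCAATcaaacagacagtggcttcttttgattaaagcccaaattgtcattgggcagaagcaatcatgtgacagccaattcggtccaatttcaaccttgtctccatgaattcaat
HOXA10, first promoter: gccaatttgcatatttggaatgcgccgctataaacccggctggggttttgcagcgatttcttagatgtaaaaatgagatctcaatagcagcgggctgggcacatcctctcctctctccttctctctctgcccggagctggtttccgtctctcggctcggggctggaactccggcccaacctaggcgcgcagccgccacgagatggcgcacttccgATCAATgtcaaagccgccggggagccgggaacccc
HOXA10, second promoter: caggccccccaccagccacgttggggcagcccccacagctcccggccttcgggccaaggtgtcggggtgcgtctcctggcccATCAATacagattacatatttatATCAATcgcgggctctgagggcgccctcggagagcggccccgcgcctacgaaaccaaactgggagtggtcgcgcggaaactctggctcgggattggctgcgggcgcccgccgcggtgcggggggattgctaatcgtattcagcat

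The core began 67 bases before the start of HOXD11, 114 before that of HOXA2, 35 before the first start of HOXA10, and 168 and 145 before the second. A variant core, ATCGAT, was found in the promoter of HOXD11, within the 50 bases after its start, and in 0.763% of all promoters. TTTATG, the core bound by CDX factors, was found in promoters of HOXD8, HOXA3 and HOXA9 and in 10.6% of all promoters. Direct repeats of AGGTCA or of AGTTCA with a spacer of 5 bases, elements of the retinoic acid receptor, were not found in the HOX promoters; 2 and 4 of the 35116 promoters held them. These matches describe letters, and none of the regions below was tied to one of them.

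The direction of the differences turned between stages. At ESC, 11 HOX regions were higher in control and 1 was higher in knockout cells. DE had 1 against 8, GT had 3 against 4, PE had 9 against 7 and PP had 3 against 8. As background, regions higher in control made up 42.6% of all listed regions at ESC, 37.2% at DE and 27.0% at GT. They made up 56.1% at PE and 11.3% at PP. The HOX share was thus above that of the whole list at ESC (91.7%), below it at DE (11.1%), and next to it at PE (56.3%); at GT it was 42.9% of 7 regions and at PP 27.3% of 11. None of these differences in share was tested.

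**Figure D1:**
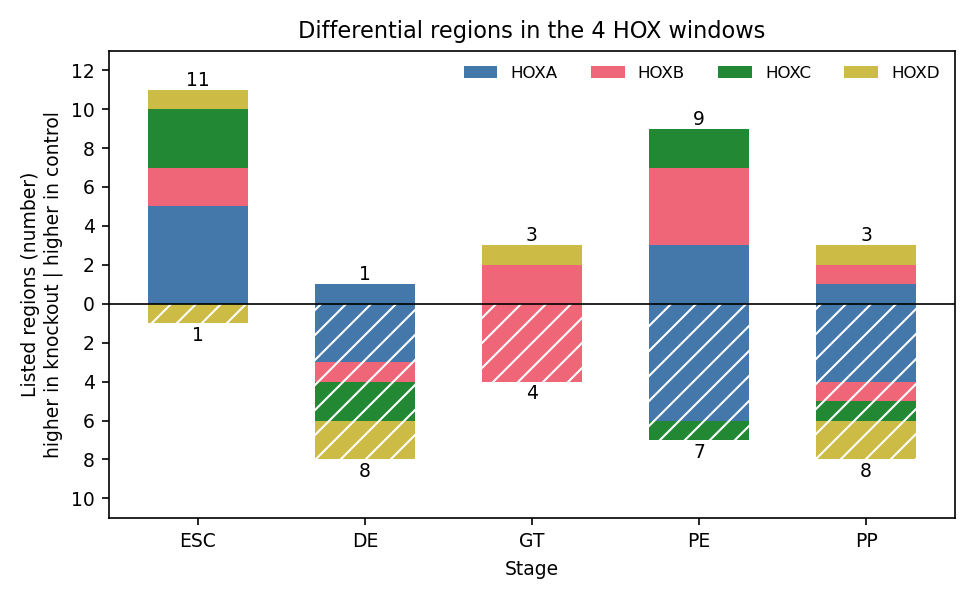
Number of listed regions in each HOX window by stage, with regions higher in control above the line, regions higher in knockout (hatched) below it, and colours for the 4 gene clusters. The 11 against 1 of ESC and the 1 against 8 of DE lie on opposite sides of the line.

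The neighbourhood leaned the same way for some of the windows and the other way for others. Among listed regions within 1 Mb of a HOX window, 55 of 85 (64.7%) were higher in control at ESC and 21 of 78 (26.9%) at DE. Around HOXB these numbers were 26 of 33 at ESC and 6 of 26 at DE, and around HOXC 25 of 33 and 6 of 37. HOXA went against its surroundings at ESC, with 5 of 5 regions higher in control where 4 of the 17 neighbouring ones were. HOXD did so at DE, with 0 of 2 regions higher in control where 6 of 8 neighbours were. At PE, 3 of the 9 HOXA regions were higher in control, against 10 of 15 around the window and 65.6% on the rest of chromosome 7. HOXB at PE had 4 of 4 against 8 of 12 neighbours, and HOXC had 2 of 3 against 18 of 22 neighbours and 88.4% on the rest of chromosome 12. At GT, 2 of the 6 HOXB regions were higher in control, next to 2 of 23 around that window and 5.94% of the listed regions on the rest of chromosome 17. The part of the surroundings in the HOX counts was not tested.

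How many regions could have been listed was read from the number in each region's name. These numbers ran in order along each chromosome without repeats in all 5 stages, so they were taken to count candidate regions, which the sources used here do not state. On that reading, 2.01% of candidates were listed as higher in control and 2.71% as higher in knockout at ESC. These shares were 1.23% and 2.08% at DE and 0.318% and 0.859% at GT. They were 2.15% and 1.68% at PE, and 0.853% and 6.67% at PP. Between the nearest listed regions outside the windows lay at most 800 candidates at ESC for the 12 HOX regions, 613 at DE for 9, 1116 at GT for 7, 531 at PE for 16 and 476 at PP for 11. At least 1.5%, 1.47%, 0.627%, 3.01% and 2.31% of HOX candidates were therefore listed, in the same order and in either direction. These shares are lower bounds, so one that lies under the whole list's share shows no shortage. HOXA at PE had the highest bound of any window and stage, with 9 listed regions out of at most 141 candidates (6.38%). A bound depends on where the nearest listed regions outside the window lie, so the order of bounds does not rank the shares. Counted from the first to the last listed region, the share was 8.18% there and 12% for the 3 HOXD regions at PP. In the other windows and stages with at least 3 listed regions it ran from 3.30% to 6.82%. Such a count starts and ends on a listed region, which raises the share by construction, so it shows no excess over the whole list.

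At ESC, HOXA was more open in control than in knockout cells at 5 places spread from end to end of its window. The leading one by the authors' p, chr7:27253451-27255100, had deposited values of 719, 747 and 578 in control cells against 354, 520 and 472 in the knockout. Every control value lay above every knockout value, and the log2 ratio was 0.60 (-log10 p 9.44). The other 4 HOXA regions had log2 ratios from 0.47 to 0.60. Of these, chr7:27249601-27250850 had 379, 488 and 444 against 275, 346 and 285, without overlap. At chr7:27283401-27284650, near the 5′ edge, 1 control value lay within the knockout range (561, 556 and 373 against 326, 258 and 461). This log2 ratio of 0.51 was 0.34 without the knockout value of 258.

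HOXB had 2 regions higher in control at ESC and none higher in knockout cells. Its leading region, chr17:46755401-46756200, had deposited values of 564, 809 and 592 in control cells against 380, 483 and 535 in the knockout, with a log2 ratio of 0.49 (-log10 p 6.39), which was 0.31 without the control value of 809 and 0.29 between medians. The other, chr17:46703651-46705500, had 714, 646 and 517 against 499, 349 and 491, again without overlap.

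HOXC had 3 regions higher in control at ESC. The leading one, chr12:54411551-54412600, had deposited values of 690, 678 and 596 in control cells against 547, 388 and 385 in the knockout (log2 ratio 0.57, -log10 p 8.27). At the HOXC13 edge, chr12:54329301-54330100 had lower values, 137, 227 and 224 against 130, 129 and 59, and a log2 ratio of 0.88. The third, chr12:54394351-54395250, overlapped between genotypes (337, 202 and 284 against 183, 79 and 221), and its log2 ratio of 0.77 was 0.44 without the knockout value of 79.

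HOXD alone had 1 region in each direction at ESC. The region higher in knockout cells, chr2:176994001-176995600, had deposited values of 736, 561 and 557 in the knockout against 343, 447 and 464 in control cells, with a log2 ratio of -0.56 (-log10 p 7.66), -0.33 between medians, and no overlap. The region higher in control, chr2:177039251-177040750 on the HOXD1 side, overlapped widely (818, 629 and 633 against 549, 664 and 345). The log2 ratio there, 0.42, was 0.19 without the knockout value of 345, 0.63 without that of 664 and 0.21 between medians.

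At DE, 3 of the 4 HOXA regions were higher in knockout cells, and all 3 lay in the part of the window towards HOXA13. The leading one, chr7:27274501-27276100, had deposited values of 766, 602 and 753 in the knockout against 533, 492 and 407 in control cells (log2 ratio -0.57, -log10 p 8.53). At chr7:27230501-27232550 the values were 641, 541 and 537 against 427, 365 and 382, and the log2 ratio was -0.55. The single region higher in control at this stage, chr7:27181901-27183200, had 291, 272 and 283 in control cells against 104, 232 and 157 in the knockout, a log2 ratio of 0.78 (-log10 p 6.12). In all 4 of these HOXA regions at DE, control and knockout values stood apart, as they did in 77.5% of all regions listed at DE.

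The other windows held only regions higher in knockout cells at DE, 1 in HOXB and 2 each in HOXC and HOXD. In HOXC, chr12:54422401-54422900 had deposited values of 119, 69 and 106 in the knockout against 43, 23 and 32 in control cells, a log2 ratio of -1.56 (-log10 p 6.65). A second HOXC region, chr12:54389651-54390350, overlapped between genotypes, with 261, 76 and 157 against 129, 48 and 59. Its log2 ratio of -1.06 was -0.56 without the knockout value of 261 and -1.60 without the control value of 129. In HOXB, chr17:46655551-46656500 had 151, 170 and 257 against 92, 102 and 123 (log2 ratio -0.86, -log10 p 5.09), without overlap.

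At GT, most of the listed regions lay in HOXB, the widest window. It had 6 of the 7 listed regions, HOXD had 1, and HOXA and HOXC had none. By the region numbers, at most 327 candidates lay in HOXB, 403 in HOXA, 160 in HOXC and 226 in HOXD. A region that was not listed may still differ. In HOXB, 2 regions higher in control stood between regions higher in knockout cells. At chr17:46640951-46641800 the deposited values were 177, 181 and 130 in control cells against 42, 102 and 89 in the knockout (log2 ratio 1.06, -log10 p 5.57). At chr17:46663301-46663700 they were low in both, 82, 45 and 106 against 15, 31 and 27, with a log2 ratio of 1.63. Nearer the HOXB1 edge, chr17:46624151-46624700 went the other way, with 130, 121 and 132 in the knockout against 55, 17 and 68 in control cells (log2 ratio -1.43, -log10 p 6.97). Further towards HOXB13, chr17:46700551-46701200 had 112, 152 and 156 in knockout against 42, 35 and 90 in control cells.

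The lowest control values in HOXB at GT were at chr17:46730851-46731250, with deposited values of 58, 58 and 96 in the knockout against 2, 41 and 8 in control cells. The log2 ratio, -1.99, was -3.58 without the control value of 41. All 7 HOX regions listed at GT differed by at least 2-fold, where 50.7% of all regions listed at that stage did. In all 7 control and knockout values stood apart, as they did in 82.6% of all regions listed at GT. Values were lower here than at the other stages, with a median of 140.0 for the mean of the higher genotype against 599 at ESC, and the scaling between these tables is not known. The HOX regions were also narrower at GT, with a median width of 550 bp against 1250 bp at ESC. Over all listed regions, the median width was 850 bp at GT and 850 bp at ESC. Their median for the mean of the higher genotype was 197.7 at GT and 264 at ESC.

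At PE, control cells were more open at the 3′ ends of HOXA, HOXB and HOXC, and knockout cells were more open further along HOXA and HOXC. The 9 regions higher in control lay between 0.281% and 59.1% of the window from its 3′ edge, with a median of 8.38%. The 7 regions higher in knockout cells lay between 25.2% and 87.4%, with a median of 44.0%. With the windows pooled by percent of window, 8 of the 9 regions higher in control were nearer to the 3′ edge than every region higher in knockout cells. The exception was chr17:46723551-46724450 in HOXB. HOXB had 0 regions higher in knockout cells, so its regions were compared only with those of other windows, and HOXC had 1. No region was listed in HOXD. With the windows narrowed by 10 kb at each end, 5 of the 9 regions higher in control were left, 4 of them nearer to the edge than all 7 regions higher in knockout cells; the 4 removed include the regions at 46605701 and 27138301. Among regions without overlap between genotypes, all 5 higher in control were nearer than the 5 higher in knockout cells. This arrangement was noticed in the data and was not tested.

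**Figure D2:**
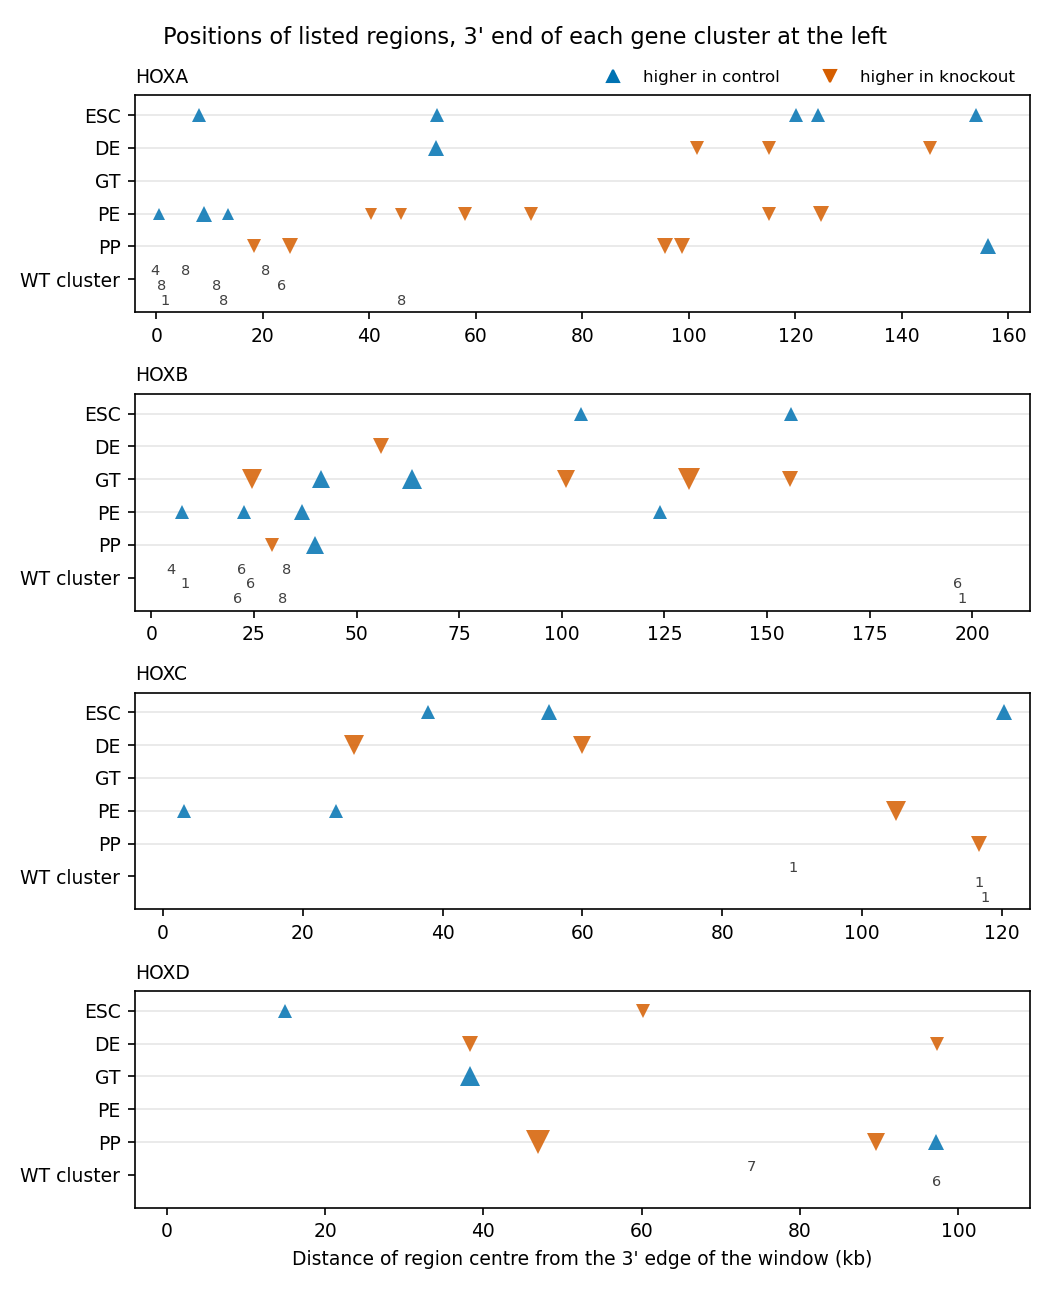
Position of each listed region (x, distance of its centre from the 3′ edge of the window in kb) by stage (y), with triangles up for regions higher in control, triangles down for regions higher in knockout, and size growing with the log2 ratio. The lowest row gives the wild-type regions by cluster number, spread in height only for legibility; in the PE row of HOXA the 3 control-higher regions stand left of the 6 knockout-higher ones.

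HOXA at PE showed this within 1 locus. The region with the highest -log10 p in this window, 11.99, was chr7:27138301-27139500, where the deposited values were 582, 548 and 568 in control cells against 374, 350 and 275 in the knockout, a log2 ratio of 0.76. Next to it, chr7:27142001-27144800 had the highest control mean of the HOX regions listed at PE. It had 2032, 1698 and 2033 in control cells against 1609, 1667 and 1518 in the knockout. At 2800 bp it was also wide, and these values were not set against width. At 0.27, its log2 ratio was the smallest of the 55, although the values did not overlap. At the window edge, chr7:27129601-27131300 had 1325, 1132 and 1659 against 1271, 1001 and 971, with overlap, and its log2 ratio of 0.34 was 0.18 without the control value of 1659.

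The 6 HOXA regions higher in knockout cells at PE had their centres from 40.3 kb from the 3′ edge onwards, and 5 of the 6 had a log2 ratio under 0.7 in size. The leading one, chr7:27169551-27171000, had deposited values of 1007, 1112 and 946 in the knockout against 697, 773 and 893 in control cells (log2 ratio -0.37, -log10 p 6.05), without overlap. At chr7:27199851-27200950 they were 952, 693 and 695 against 615, 604 and 536, and the log2 ratio of -0.41 was -0.25 without the knockout value of 952. At chr7:27175351-27176450 (1154, 989 and 691 against 776, 600 and 819) and at chr7:27187001-27188750 (610, 398 and 547 against 273, 453 and 354) the genotypes overlapped. The former had a log2 ratio of -0.37, which was -0.20 without the knockout value of 1154 and -0.24 without the control value of 600.

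In HOXB all 4 regions listed at PE were higher in control. The region chr17:46605701-46609250, centred 7.48 kb from the edge on the HOXB1 side, had the highest -log10 p of all 55 HOX regions, 18.2. It was also the widest, at 3550 bp, and its deposited values were 1513, 1360 and 1669 in control against 1079, 926 and 1091 in knockout cells, a log2 ratio of 0.55. At chr17:46635951-46637650 the values were 551, 387 and 426 against 277, 233 and 258, a log2 ratio of 0.83 (-log10 p 10.97). The genotypes did not overlap in either of these regions. They did in the other HOXB regions of this stage. At chr17:46622001-46623350, with 491, 722 and 635 against 551, 318 and 435, the log2 ratio of 0.50 was 0.32 without the knockout value of 318. At chr17:46723551-46724450, with 484, 240 and 211 against 143, 194 and 239, the log2 ratio of 0.70 was 0.23 without the control value of 484.

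HOXC at PE followed the same order from its high-coordinate side. At chr12:54446251-54447800, centred 2.98 kb from the edge, the deposited values were 721, 740 and 877 in control cells against 591, 604 and 525 in the knockout (log2 ratio 0.44, -log10 p 6.26), without overlap. At chr12:54424601-54425950 the genotypes overlapped (405, 692 and 638 against 428, 476 and 347, log2 ratio 0.47). On the HOXC13 side, chr12:54345001-54345350 was higher in knockout cells, with 88, 102 and 64 against 17, 58 and 11. Its log2 ratio of -1.53 (-log10 p 5.72) was -2.51 without the control value of 58 and -2.31 between medians.

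At PP, 8 of the 11 HOX regions were higher in knockout cells, in a list that leaned that way as a whole. In HOXA this was 4 of 5. The leading region, chr7:27147551-27149300, had deposited values of 616, 713 and 595 in the knockout against 459, 540 and 238 in control cells, without overlap. Its log2 ratio of -0.64 (-log10 p 10.02) was -0.36 without the control value of 238 and -0.42 between medians. At chr7:27154901-27155400 the values were 225, 319 and 327 against 107, 169 and 188, a log2 ratio of -0.90. Further along, chr7:27225101-27225850 had 179, 225 and 178 against 120, 106 and 102, while chr7:27228351-27229150 overlapped (335, 151 and 147 against 60, 153 and 128). The latter had a log2 ratio of -0.89, which was -0.39 without the knockout value of 335 and -0.58 without the control value of 60. At the 5′ edge, chr7:27285851-27286450 was higher in control, with 183, 117 and 183 against 114, 77 and 56 (log2 ratio 0.96, -log10 p 5.43).

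In HOXB at PP, neighbouring regions went in opposite directions. At chr17:46639551-46640100 the deposited values were 217, 196 and 164 in control cells against 81, 86 and 68 in the knockout, a log2 ratio of 1.29 (-log10 p 9.84) without overlap. It lies next to, and does not overlap, the first of the GT regions that were higher in control. At chr17:46628851-46630150 they were 380, 324 and 289 in the knockout against 177, 151 and 297 in control cells, with overlap. The log2 ratio of the latter, -0.67 (-log10 p 5.88), was -1.01 without the control value of 297. HOXC had 1 region at PP, chr12:54332801-54333500 at the HOXC13 edge, with 136, 170 and 187 in knockout against 59, 90 and 103 in control cells (log2 ratio -0.96, -log10 p 5.48).

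HOXD held the largest log2 ratio of the 55 regions, -2.28 (-log10 p 7.85), at chr2:177007901-177008250 at PP. Its deposited values were low and uneven, 102, 74 and 25 in the knockout against 34, 1 and 4 in control cells. The genotypes overlapped there, and the log2 ratio was -4.28 without the control value of 34 and -3.91 between medians. Towards HOXD13, chr2:176965001-176965850 had 205, 203 and 119 in the knockout against 43, 143 and 59 in control cells, also with overlap. Its log2 ratio of -1.10 was -1.76 without the control value of 143.

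**Figure D3:**
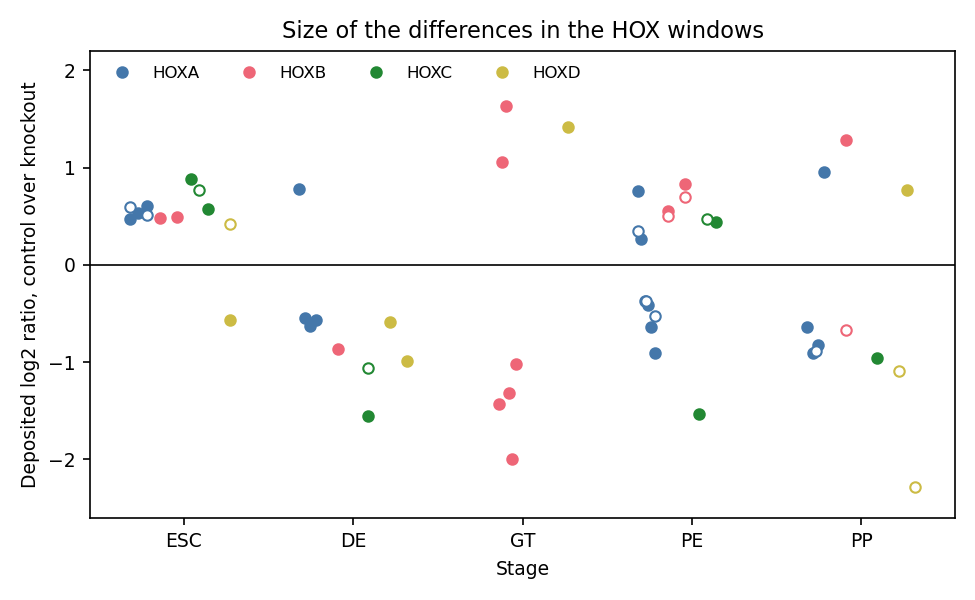
Deposited log2 ratio of control over knockout (y) for each of the 55 HOX regions by stage (x), coloured by gene cluster, with filled points where the 3 values of one genotype lay apart from those of the other and open points where they overlapped. The 7 points at GT all lie beyond 1 in size, and the lowest point is the HOXD region of PP at -2.28.

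Over all 55 regions the size of the log2 ratio had a median of 0.70, against 0.94 over all 89929 listed regions. Of the HOX regions, 13 (23.6%) differed by at least 2-fold, where 45.4% of all listed regions did. All 23 HOXA regions were below 2-fold, with a median size of 0.60, while 7 of 15 in HOXB, 3 of 9 in HOXC and 3 of 8 in HOXD reached it. This contrast between windows is mixed with stage. All 7 HOX regions listed at GT reached 2-fold, and 6 of these lie in HOXB and 0 in HOXA. Values also differed, with a median for the mean of the higher genotype of 518.3 in HOXA, 192.7 in HOXB, 196 in HOXC and 268.5 in HOXD. The contrast was not tested. The HOX regions had a median width of 1050 bp against 750 bp, and a median of 353 against 221 for the mean of the higher genotype. A -log10 p of at least 10 was reached by 4 HOX regions (7.27%) and by 10% of all listed regions; 2 of the 4 lie in HOXA and 2 in HOXB, and 3 of them are regions higher in control at PE.

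Control and knockout values stood apart in 40 of the 55 HOX regions (72.7%), against 78.5% of all listed regions. The HOX share was below that of its stage's list at ESC (66.67% against 76.08%), PE (62.5% against 77.49%) and PP (63.64% against 79.75%). It was above it at DE (88.89% against 77.49%) and at GT (100% against 82.57%). In the 40 regions that stood apart, the two-sided exact permutation test of 3 values against 3 gave p = 0.1, the smallest it can give. It gave 0.2 in 11 regions and 0.3 in 4, and the lowest Benjamini-Hochberg adjusted p over the 55 exact tests was 0.138. All 55 had been listed for a difference between these same values. Leaving out each of the 6 values in turn reversed the direction of 0 of the 55 log2 ratios, and it moved 18 of them by over 1.5 times.

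Some HOX places were listed at more than 1 stage. In 7 places a region of one stage overlapped a region of another, which involved 14 of the 55 regions (25.5%), next to the 25.2% of all listed regions that overlapped one of another stage. No HOX region overlapped regions of 2 or more other stages, which 5.31% of all listed regions did. The direction was the same in 3 of the 7 places and opposite in 4. Over all lists, 42.1% of overlapping pairs from different stages went in opposite directions.

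The 3 places with the same direction all lay in HOXA. At 27181901 to 27183200 control cells were higher at ESC and at DE. The deposited values at ESC, for a slightly wider region, were 574, 521 and 645 in control against 455, 401 and 402 in knockout cells (log2 ratio 0.47), and at DE the log2 ratio was 0.78. The DE values of this place, given above, showed the same lack of overlap. At 27138301 to 27138500, a shared stretch of 200 bp, control cells were higher at ESC (467, 492 and 283 against 237, 256 and 328, with overlap, log2 ratio 0.60) and at PE (0.76). At 27244501 to 27245450 knockout cells were higher at both DE and PE. The DE values were 364, 307 and 405 in knockout against 199, 251 and 247 in control cells. At PE they were 334, 336 and 361 against 112, 332 and 215, and the log2 ratios were -0.62 and -0.64. The latter was -0.33 without the control value of 112 and -1.07 without that of 332.

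**Figure D4:**
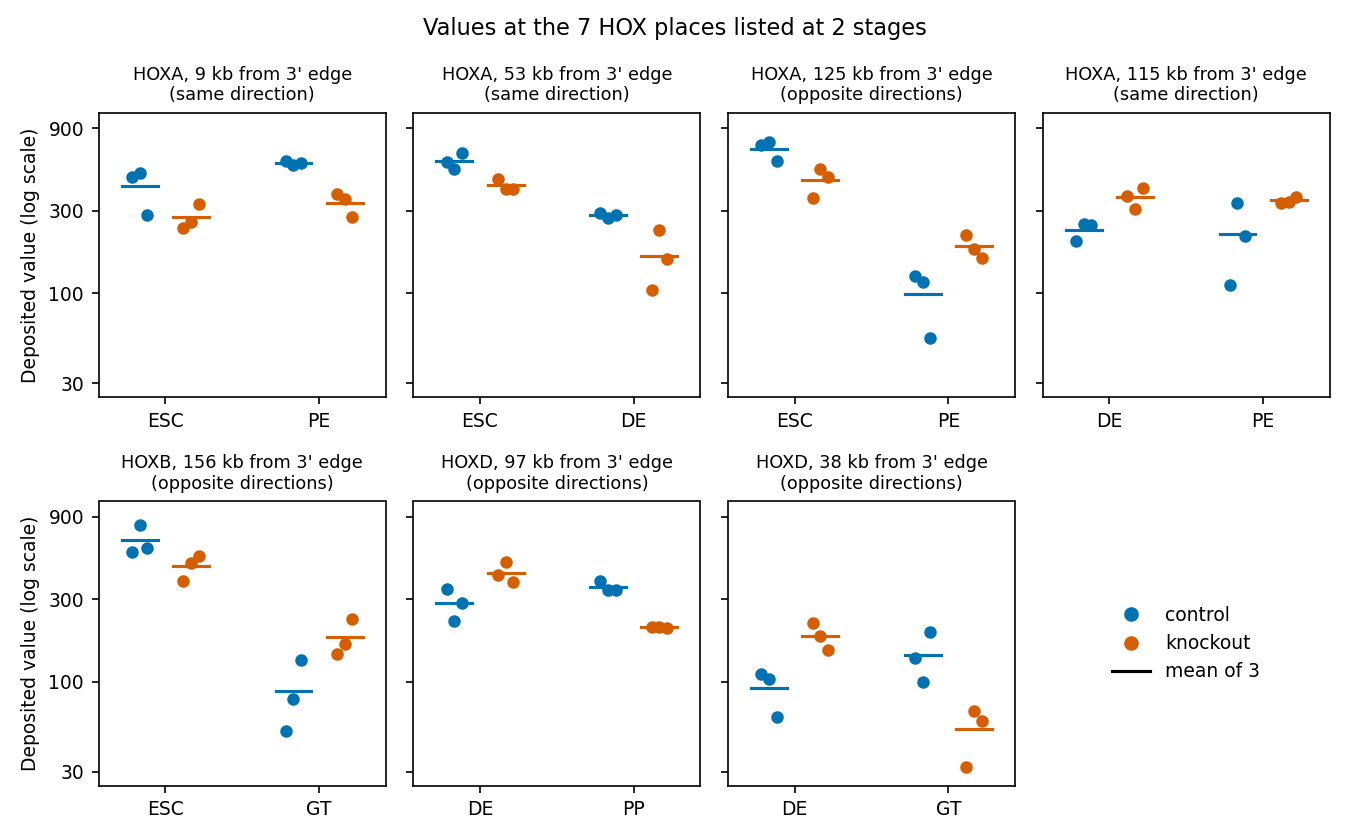
Deposited values (y, log scale) of the 3 control and 3 knockout samples at the 7 HOX places listed at 2 stages, with bars for the mean of 3; titles give the distance from the 3′ edge. In the 4 panels with opposite directions the genotypes change places between the stages without overlap at either stage; levels of different stages come from separate tables.

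The 4 places with opposite directions were 1 in HOXA, 1 in HOXB and 2 in HOXD. In HOXA, 27254451 to 27255100 was part of the leading ESC region higher in control. At PE it was higher in knockout cells, with deposited values of 218, 181 and 160 against 126, 116 and 55 in control cells. In HOXB, 46755401 to 46755950 turned from control-higher at ESC to knockout-higher at GT, where the deposited values were 144, 165 and 231 in knockout against 52, 79 and 134 in control cells.

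In HOXD the turn came between DE and a later stage. At 177016351 to 177016950, knockout cells were higher at DE (217, 183 and 152 against 111, 103 and 62 in control, log2 ratio -0.99). At GT the same place was higher in control, with deposited values of 137, 99 and 193 against 32, 68 and 59 in knockout cells (log2 ratio 1.42, -log10 p 7.58). At 176957201 to 176958350, on the HOXD13 side, knockout cells were higher at DE (411, 494 and 376 against 344, 223 and 283, log2 ratio -0.59). At PP control cells were higher there, with 380, 339 and 340 against 206, 208 and 204 (log2 ratio 0.77, -log10 p 7.89). In these 4 places the genotypes did not overlap at either stage.

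The wild-type lists hold a sorted set of peaks and not every region open in control cells. Of the 9 clusters, 4 had no HOX region: numbers 2 (2627 regions in all), 3 (2551), 5 (707) and 9 (4707). Cluster 8 held 8 of the 23 wild-type HOX regions among its 2823 regions. Cluster 1 held 6 among 2113, cluster 6 held 6 among 1671, cluster 4 held 2 among 2699 and cluster 7 held 1 among 3076. The labels do not say which accessibility profile each number marks. The 8 regions of cluster 8 lay in HOXA (6) and HOXB (2), all on the 3′ side, between 0.588% and 28.8% of the window from its edge. The 3 wild-type regions of HOXC were all in cluster 1 and lay on the HOXC13 side, between 75.2% and 98%. The 2 of HOXD, from clusters 6 and 7, lay on the HOXD13 side, at 92.6% and 70.4%.

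Of the 23 wild-type HOX regions, 9 (39.1%) overlapped at least 1 differential list, close to the 38.4% of all 22974 wild-type regions. The control PE list overlapped 5 of the 23, where it overlapped 6.44% of all wild-type regions. These 5 were 3 in HOXA, of clusters 4 and 8, and 2 in HOXB, of clusters 1 and 6, and all lay towards the 3′ edge, as did all 9 wild-type regions of HOXA and 7 of the 9 of HOXB. The knockout PE list overlapped 1, a cluster 8 region of HOXA at 27175750 to 27176249 (3.97% of all). The knockout GT and knockout PP lists overlapped 1 each (1.86% and 11.1% of all). The cluster 6 region of HOXD at 176957481 to 176957980 overlapped both the knockout DE list (5.69% of all) and the control PP list (2.47%). The control ESC (5.38%), knockout ESC (3.73%), control DE (4.99%) and control GT (2.49%) lists overlapped 0 of the 23. The control ESC list held 11 HOX regions. With only 23 wild-type regions, a count of 0 cannot be told apart from shares this small.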

How the data were processed

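ATAC-seq regions of 30 samples in 10 groups were analysed. The tools named are Bowtie2 and MACS2, with the build hg19, per the submitters' processing notes. The labels do not say how reads were shifted, how values were scaled or which tool called differential regions. The authors deposited 10 differential lists and 9 lists of wild-type regions. Each deposited differential region carries a log2 ratio, which equals that of the control over the knockout mean of its whole-number values with 1 added to each (largest difference 5e-12), and a deposited -log10 p from a test the labels do not name. The second set of 3 values was read as control because it is the higher one in every control list. The 3 values carry no replicate numbers, and whether they are counts is not stated, so no count model was run.

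Regions were selected by window with an overlap of at least 1 bp (Python 3.11.15, pandas 2.3.3, numpy 2.4.6), and the overlap code was tested on simulated intervals. Exact permutation tests used the 3 values of each genotype. Depth is unknown. The members and lists were chosen with earlier results of these data known. Regions named by rule were the 25 with the highest authors' -log10 p in each window, stage and direction; the others named, and every pattern of position, were picked after their values were seen. Promoters were read from RefSeq (GRCh38.p14). Alternatives covered thresholds, window edges, merging, pseudocount and left-out values.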

Additional observations from a re-analysis of the deposited data

Results flagged for a closer look

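At 4 of the 7 HOX places listed at 2 stages, every control value lay above every knockout value at one stage and below every knockout value at another. The difference between the stages was not tested at any of them. Over all lists, 42.1% of overlapping pairs from different stages went in opposite directions, and control and knockout values stood apart in 78.5% of listed regions. In HOXA, 27254451 to 27255100 had a log2 ratio of control over knockout of 0.60 at ESC and -0.91 at PE. In HOXB, 46755401 to 46755950 had 0.49 at ESC and -1.02 at GT. In HOXD, 176957201 to 176958350 had -0.59 at DE and 0.77 at PP, and 177016351 to 177016950 had -0.99 at DE and 1.42 at GT.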

How the results depend on the processing

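No paired analysis was possible because the value columns carry no replicate numbers. Of the counts of HOX regions per stage and direction, all 10 stayed within 1.5 times with at least 0.5 of a region inside the window, with windows widened by 20 kb, with regions within 500 bp merged and with a mean of at least 50. With a -log10 p of at least 10, 3 regions higher in control remained at PE and 1 higher in knockout at PP, and 0 in the other 8 lists. With a log2 ratio of at least 1 in size, control-higher counts were 0 at ESC, DE and PE and 1 at PP, and knockout-higher counts 0 at ESC, 2 at DE, 1 at PE and 2 at PP. With values that did not overlap, control-higher counts were 7 at ESC and 5 at PE, and the knockout-higher count at PP was 4. Windows narrowed by 10 kb left 5 control-higher regions at PE and 1 at PP. Overlaps of wild-type HOX regions fell to 1 for the control PE list and to 0 for the others at a -log10 p of at least 10; the overlap with the knockout GT list fell to 0 when 0.5 of the wild-type region had to be covered. Places listed at 2 stages numbered 6 with at least 0.5 of the shorter region shared. Of the 25 regions named by rule, 0 changed direction with a pseudocount of 10, with medians in place of means or with each value left out in turn. These 25 regions had been picked for a high -log10 p in these same values, which favours a stable direction. The log2 ratio moved by over 1.5 times in 0 of them with that pseudocount, in 6 with medians (to -3.91 for HOXD at PP) and in 6 with a value left out. With the windows pooled, 8 of the PE regions higher in control were nearer to the 3′ edge than every PE region higher in knockout cells. This was 4 with the narrowed windows and 5 with values that did not overlap, both chosen after seeing the data. Depth is unknown, so what it limits was not tested.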
